A study of Mus musculus with 20 samples.

Results

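The unfolded protein response is the programme by which a cell adjusts its endoplasmic reticulum (ER) to a load of unfolded protein, and 32 of its genes were followed in RNA of whole mouse kidneys. The 32 genes were chosen as a list of symbols, and each symbol was matched to its gene identifier in the count table, which holds 55471 identifiers. They comprise 14 genes of ER chaperones and folding enzymes, 7 genes of ER-associated degradation (ERAD) and translocation, 4 genes of stress sensors and the factor Xbp1, and 7 genes of the branch of the transcription factors ATF4 and CHOP. All 32 passed the filter on low counts in both experiments.

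The study asked what telomerase reverse transcriptase (TERT) does in the injured and regenerating kidney, and sequenced kidneys of 20 female mice aged 2 months in 2 experiments. In the Adriamycin (ADR) experiment, TERT KO/KO mice, which lack Tert constitutively, and their TERT WT/WT littermates, backcrossed to BALB/c, had a single intravenous dose of 12 mg/kg of ADR, which is doxorubicin, or saline. Kidneys were taken at day 18 from 3 TERT KO/KO ADR, 3 TERT KO/KO saline, 3 TERT WT/WT ADR and 4 TERT WT/WT saline mice. In the other experiment, on a mixed background, 3 i-TERTci mice, which carry actin-rtTA and tetOp-TERTci, and 4 actin-rtTA+ mice, which carry the activator alone, drank 2 mg/ml of doxycycline for 15 days. Doxycycline drives catalytically inactive TERT throughout the body of i-TERTci mice, and kidneys were collected 8 days after it was withdrawn from both groups.

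Unfolded protein in the ER is sensed by IRE1 (Ern1), PERK (Eif2ak3) and ATF6. IRE1 splices the mRNA of Xbp1, ATF6 is cleaved to a transcription factor, and these arms are known to raise chaperone and ERAD genes through the ER stress response element of their promoters. PERK phosphorylates the translation factor eIF2α, which lowers general translation and favours translation of ATF4, and ATF4 and its target CHOP (Ddit3) act on genes of amino acid supply and stress recovery. Counts per gene measure total mRNA, so they do not show the splicing of Xbp1, the cleavage of ATF6 or the translation of Atf4.

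The libraries held 39323498 to 48399322 counts. TERT KO/KO ADR replicate 2 as labelled went against its tissue label, with Alb, the serum albumin gene of liver, at 26.1% of its counts, against at most 0.00829% in the other 19 libraries. It is left out of the group means and the main tests below, and its values are given apart. The position of the 32 genes in it depends on the scaling, since its TMM factor, which corrects for a few genes taking much of a library, is 0.418. With TMM factors of all 13 libraries of the ADR experiment 26 of the 32 genes lay above the other 12 libraries and none below. Scaled by the library total alone, which was chosen after the data were seen, 7 lay above and 15 below. Tert had 105 to 210 counts in the TERT KO/KO ADR libraries kept and 51 to 132 in TERT KO/KO saline libraries, against 164 to 379 in TERT WT/WT ADR and 122 to 187 in TERT WT/WT saline libraries. These counts cover the whole gene and the deleted part was not named, so they do not check the genotype. In i-TERTci replicates 1, 2 and 3 Tert had 1070, 1086 and 230 counts, against 87 to 164 in actin-rtTA+ libraries.

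Levels below are CPM, which are counts scaled by the library total and its TMM factor, and only levels divided by exon length compare one gene with another. In TERT WT/WT saline kidneys Calr, the lectin chaperone calreticulin, stood highest with 304 CPM per kb of exon. The disulphide isomerase Pdia3 had 164 CPM per kb, the ERAD scaffold Herpud1 had 123 CPM per kb and Hspa5, the chaperone BiP, had 107 CPM per kb. The ATF4 targets Trib3 and Chac1 stood lowest, with 0.486 and 0.826 CPM per kb, and the ERAD gene Derl3 had 0.926 CPM per kb. The chaperones thus lay from 10.2 CPM per kb, in Sdf2l1, to the 304 CPM per kb of Calr, and the ATF4 and CHOP branch lay from the 0.486 CPM per kb of Trib3 to 31.9 CPM per kb in Atf4 itself.

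To ask what the genes did 18 days after ADR, TERT WT/WT ADR kidneys were compared with TERT WT/WT saline kidneys. Several chaperone and ERAD genes fell after ADR, whereas genes of the ATF4 and CHOP branch rose. At an adjusted p under 0.05, 5 of the 14 chaperones and 2 of the 7 ERAD genes fell, 3 of the 7 ATF4 and CHOP genes rose, and none of the 4 sensor genes was called. Of all 19023 genes tested, 12.0% were called lower and 15.2% higher. The median log2 fold change was -0.28 over the chaperones, -0.16 over the ERAD genes, -0.04 over the sensors and 0.55 over the ATF4 and CHOP branch, against 0.01 over all genes tested. In 8 chaperones, 3 ERAD genes and no sensor gene the 3 ADR libraries lay below all 4 saline libraries, and in 3 genes of the ATF4 and CHOP branch they lay above, against 16.2% of all genes that lay below and 17.3% that lay above.

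Hspa5 (ENSMUSG00000026864.13, chromosome 2, 34771970 to 34777547), which encodes BiP, the main ER chaperone and a brake on the sensors, had 305, 319 and 330 CPM in TERT WT/WT ADR kidneys, against 354, 464, 515 and 480 CPM in TERT WT/WT saline kidneys. Its log2 fold change was -0.51 ± 0.15 (SE, adjusted p = 0.0266). The ADR libraries were within a narrow range, and the saline library nearest to them was replicate 1. Hyou1 (ENSMUSG00000032115.14, chromosome 9, 44379490 to 44392369), a large chaperone that exchanges the nucleotide of BiP, had 94.5, 93.1 and 104 CPM in ADR kidneys, against 111, 154, 143 and 136 CPM in saline kidneys, a log2 fold change of -0.49 ± 0.13 (adjusted p = 0.0209). Again replicate 1 was the lowest saline library and the groups did not overlap.

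Dnajb11 and Dnajc3 encode DnaJ cochaperones of BiP, and Dnajc3, known as P58IPK, also restrains PERK. Dnajb11 (ENSMUSG00000004460.17, chromosome 16, 22857845 to 22879634) had 61.0, 49.9 and 56.3 CPM in ADR kidneys, against 63.2, 82.0, 77.5 and 79.7 CPM in saline kidneys, a log2 fold change of -0.44 ± 0.12 (adjusted p = 0.0161). Dnajc3 (ENSMUSG00000022136.8, chromosome 14, 118937976 to 118981697) had 96.1, 70.2 and 83.9 CPM in ADR kidneys, against 102, 127, 139 and 141 CPM in saline kidneys, a log2 fold change of -0.61 ± 0.14 (adjusted p = 0.00905). This was the largest fall among the chaperones, and all 3 ADR libraries lay below the lowest saline library. Canx (ENSMUSG00000020368.15, chromosome 11, 50293961 to 50325673), the membrane-bound lectin chaperone calnexin, had 297, 256 and 270 CPM in ADR kidneys, against 318, 368, 407 and 416 CPM in saline kidneys, a log2 fold change of -0.46 ± 0.14 (adjusted p = 0.0314).

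The other 9 chaperones were not called. Hsp90b1, the ER form of HSP90, had 276, 265 and 279 CPM in ADR kidneys, against 281, 386, 438 and 422 CPM in saline kidneys (log2 fold change -0.48 ± 0.19, adjusted p = 0.0745). The soluble cochaperone Sdf2l1 and the folding factor Creld2 also had all ADR libraries below all saline libraries, with log2 fold changes of -0.29 and -0.28. Calr, the disulphide isomerases Pdia3, Pdia4 and Pdia6, and the secreted factor Manf had log2 fold changes of -0.19 to -0.01 and overlapping groups. Dnajb9, a cochaperone that directs misfolded protein to degradation and holds IRE1 inactive, was the only chaperone with a positive fold change, with 53.1, 63.5 and 75.8 CPM in ADR kidneys, against 45.9, 46.0, 56.6 and 52.4 CPM in saline kidneys (0.35 ± 0.14, adjusted p = 0.0799).

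Among the ERAD genes, Edem1 (ENSMUSG00000030104.9, chromosome 6, 108828641 to 108859356), a mannosidase-like factor that marks misfolded glycoproteins, had 43.6, 33.9 and 39.0 CPM in ADR kidneys, against 46.4, 51.2, 59.7 and 58.7 CPM in saline kidneys. Its log2 fold change was -0.48 ± 0.14 (adjusted p = 0.0242). Derl1 (ENSMUSG00000022365.6, chromosome 15, 57869502 to 57892448), a channel component of retrotranslocation, had 78.2, 69.5 and 73.9 CPM in ADR kidneys, against 86.1, 94.9, 90.7 and 96.9 CPM in saline kidneys, a log2 fold change of -0.32 ± 0.10 (adjusted p = 0.0292). In both genes the groups did not overlap. Herpud1 was below all saline libraries too, with 267, 133 and 182 CPM in ADR kidneys, against 277, 286, 303 and 280 CPM in saline kidneys, but its ADR libraries spread widely and it was not called (log2 fold change -0.56 ± 0.22, adjusted p = 0.0719). The ligase subunits Sel1l and Syvn1, the factor Derl3 and the translocon subunit Sec61b had log2 fold changes of -0.16 to 0.26 and overlapping groups.

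**Figure D1:**
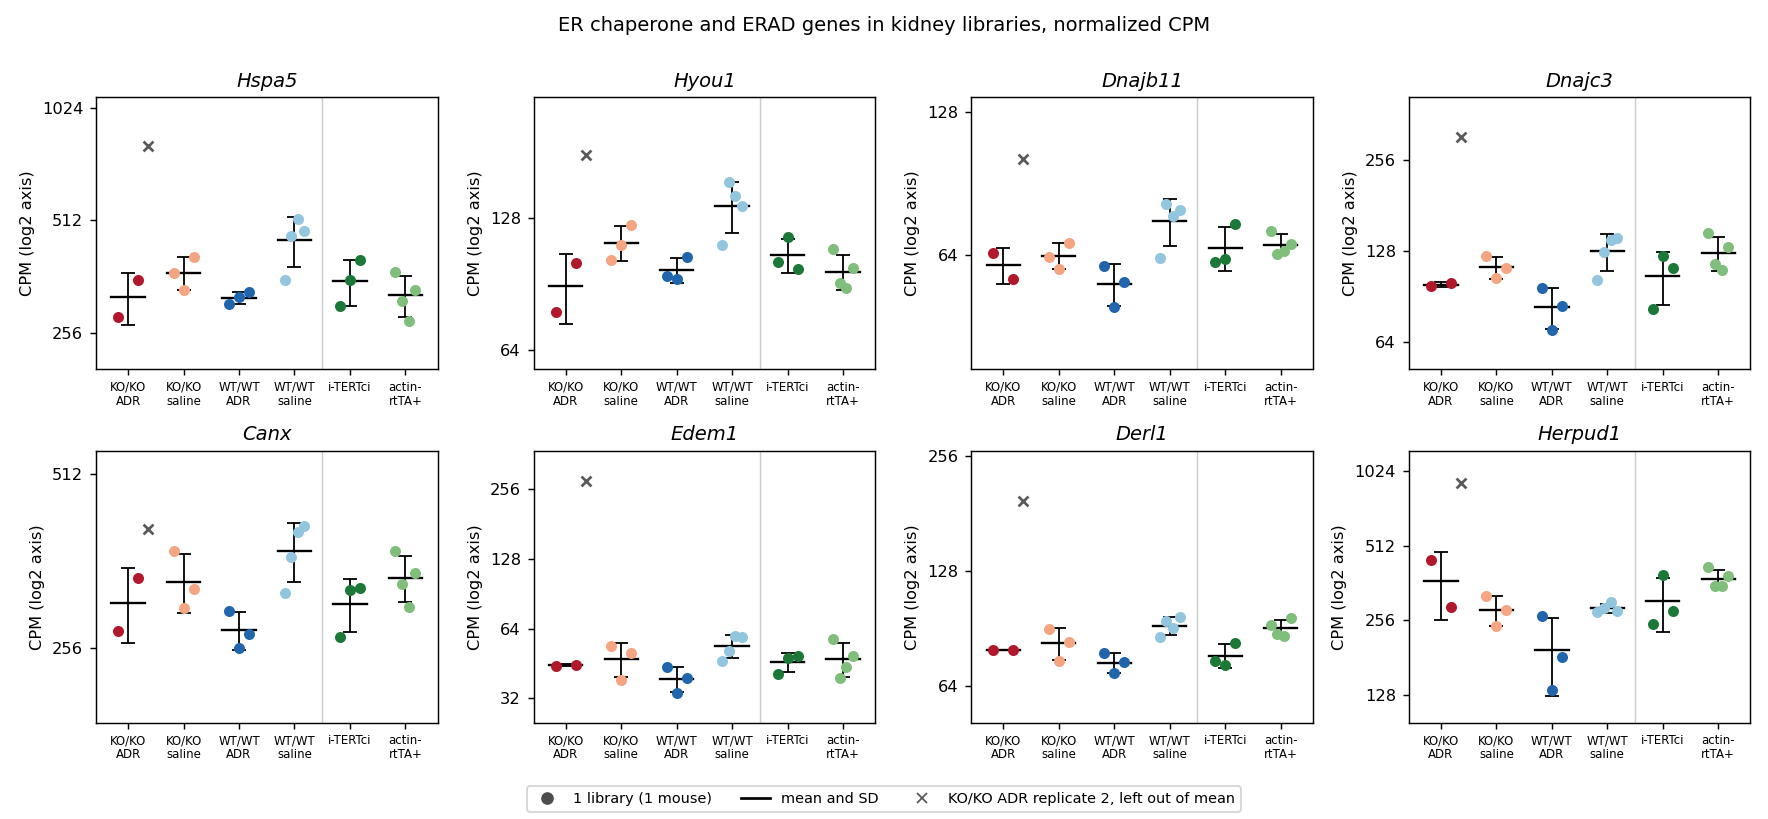
Normalized CPM (log2 axis) of 5 chaperone genes and 3 ERAD genes in each library, by group, with the mean and SD of each group and the left-out library of the TERT KO/KO ADR group as a cross, whose height rests on its TMM factor. In Hspa5 the TERT WT/WT ADR libraries sit between 305 and 330 CPM, below the TERT WT/WT saline libraries at 354 to 515 CPM.

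Some of the genes that fell carry the ER stress response element in their promoters. RefSeq promoters of GRCm38.p6, each of 250 bases before to 50 bases after the start site, were matched by symbol for 28 of the 32 genes, in 29 promoters, and none was printed or searched for Atf6, Derl1, Hyou1 and Manf. The motifs searched on both strands were ERSE (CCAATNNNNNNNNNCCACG), ERSE-II (ATTGG and CCACG with 1 base between them), UPRE (TGACGTGG) and the C/EBP-ATF element (TGATGNAA). ERSE and ERSE-II share the letters CCACG, whose complement ends UPRE. ERSE was in 9 of the 29 promoters (31.0%), against 0.119% of all 32851 promoters, and ERSE-II was in those of Dnajb11 and Herpud1 (6.9%), against 0.0365% of all promoters. The 9 genes with ERSE were Calr, Canx, Creld2, Derl3, Dnajc3, Hsp90b1, Hspa5, Pdia6 and Syvn1, so it was present in genes that fell and in genes that were not called. UPRE was in none of the 29, against 0.676% of all promoters. The C/EBP-ATF element, which ATF4 dimers are known to bind, was in the promoters of Asns, Chac1, Herpud1 and Trib3 (13.8%), against 3.97% of all promoters. A match is a description of these letters, not evidence of binding.
The promoters of 4 genes that fell and of Asns, which rose, are shown, with the fixed letters of each match in capitals. ERSE begins at -65 from the start site in Hspa5 (chr2:34771840-34772139, plus strand), at -105 in Dnajc3 (chr14:118937682-118937981, plus strand) and at -145 in Canx (chr11:50325624-50325923, minus strand). ERSE-II begins at 8 in Dnajb11 (chr16:22857595-22857894, plus strand), and the C/EBP-ATF element begins at -23 in Asns (chr6:7693160-7693459, minus strand).
Hspa5: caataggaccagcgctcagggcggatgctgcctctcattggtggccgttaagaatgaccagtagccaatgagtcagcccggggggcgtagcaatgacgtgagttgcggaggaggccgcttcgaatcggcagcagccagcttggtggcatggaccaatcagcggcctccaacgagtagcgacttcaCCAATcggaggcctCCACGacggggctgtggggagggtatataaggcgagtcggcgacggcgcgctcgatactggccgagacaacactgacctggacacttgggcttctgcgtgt
Dnajc3: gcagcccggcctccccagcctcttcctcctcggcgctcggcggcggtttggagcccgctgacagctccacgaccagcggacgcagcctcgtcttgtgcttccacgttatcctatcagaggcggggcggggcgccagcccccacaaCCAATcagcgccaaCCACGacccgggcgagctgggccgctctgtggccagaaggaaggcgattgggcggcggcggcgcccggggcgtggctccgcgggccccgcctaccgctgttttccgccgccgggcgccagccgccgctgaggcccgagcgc
Canx: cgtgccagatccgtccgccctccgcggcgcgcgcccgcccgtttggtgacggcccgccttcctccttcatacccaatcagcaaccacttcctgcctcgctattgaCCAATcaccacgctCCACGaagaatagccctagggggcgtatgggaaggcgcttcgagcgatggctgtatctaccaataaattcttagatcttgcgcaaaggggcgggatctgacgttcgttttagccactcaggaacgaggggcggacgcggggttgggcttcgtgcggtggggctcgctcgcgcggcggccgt
Dnajb11: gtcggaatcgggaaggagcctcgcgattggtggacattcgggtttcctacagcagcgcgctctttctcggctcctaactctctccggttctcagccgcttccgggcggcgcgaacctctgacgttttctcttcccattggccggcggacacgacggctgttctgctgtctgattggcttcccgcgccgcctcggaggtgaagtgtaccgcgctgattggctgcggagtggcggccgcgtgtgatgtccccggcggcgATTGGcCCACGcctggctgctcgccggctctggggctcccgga
Asns: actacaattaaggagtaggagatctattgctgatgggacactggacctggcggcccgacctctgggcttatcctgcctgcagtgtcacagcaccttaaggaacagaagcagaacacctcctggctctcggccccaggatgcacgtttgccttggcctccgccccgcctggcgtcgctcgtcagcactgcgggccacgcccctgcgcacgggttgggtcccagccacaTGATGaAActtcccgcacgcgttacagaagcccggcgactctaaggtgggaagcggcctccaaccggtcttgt

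In the ATF4 and CHOP branch, Asns (ENSMUSG00000029752.12, chromosome 6, 7675169 to 7693254), asparagine synthetase and the gene of the last promoter above, had the largest fold change of the 32 genes in this comparison. It had 6.15, 13.9 and 12.4 CPM in TERT WT/WT ADR kidneys, against 3.65, 3.89, 3.19 and 4.08 CPM in TERT WT/WT saline kidneys, a log2 fold change of 1.55 ± 0.24 (adjusted p = 0.00167). The groups were well apart, and ADR replicate 1 was the lowest of its group. Ddit3 (ENSMUSG00000025408.15, chromosome 10, 127290774 to 127296288), which encodes CHOP, had 13.7, 10.3 and 9.02 CPM in ADR kidneys, against 8.40, 7.95, 7.21 and 6.56 CPM in saline kidneys, a log2 fold change of 0.55 ± 0.17 (adjusted p = 0.0306). Here ADR replicate 1 was the highest of its group.

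Ppp1r15a (ENSMUSG00000040435.12, chromosome 7, 45522916 to 45526268), known as GADD34, brings a phosphatase to eIF2α and so restores translation. It had 25.4, 33.2 and 32.1 CPM in ADR kidneys, against 21.9, 20.7, 18.5 and 19.9 CPM in saline kidneys, a log2 fold change of 0.58 ± 0.12 (adjusted p = 0.00503). The groups did not overlap. Atf4 had 74.7, 88.5 and 96.5 CPM in ADR kidneys, against 76.4, 79.4, 73.8 and 71.7 CPM in saline kidneys, and was not called (0.20 ± 0.10, adjusted p = 0.150). The related factor Atf5, the pseudokinase Trib3 and Chac1, which degrades glutathione, had positive log2 fold changes of 0.04 to 0.58, overlapping groups and no call. The sensor genes were not called either, with log2 fold changes of -0.41 in Atf6, -0.29 in Ern1, 0.22 in Xbp1 and 0.33 in Eif2ak3.

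The chaperone medians of the 3 TERT WT/WT ADR mice lay close together, and those of the ATF4 and CHOP branch spread more. Relative to the mean of the saline libraries, the median log2 ratio over the 14 chaperones was -0.32, -0.30 and -0.29 in ADR replicates 1, 2 and 3, and over the 7 ATF4 and CHOP genes it was 0.24, 0.45 and 0.36. In the saline libraries the chaperone median was 0.05 to 0.08 in replicates 2 to 4 and -0.25 in replicate 1, close to the ADR libraries. These are descriptions of single mice, and medians over genes of 1 library are not replicates.

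**Figure D2:**
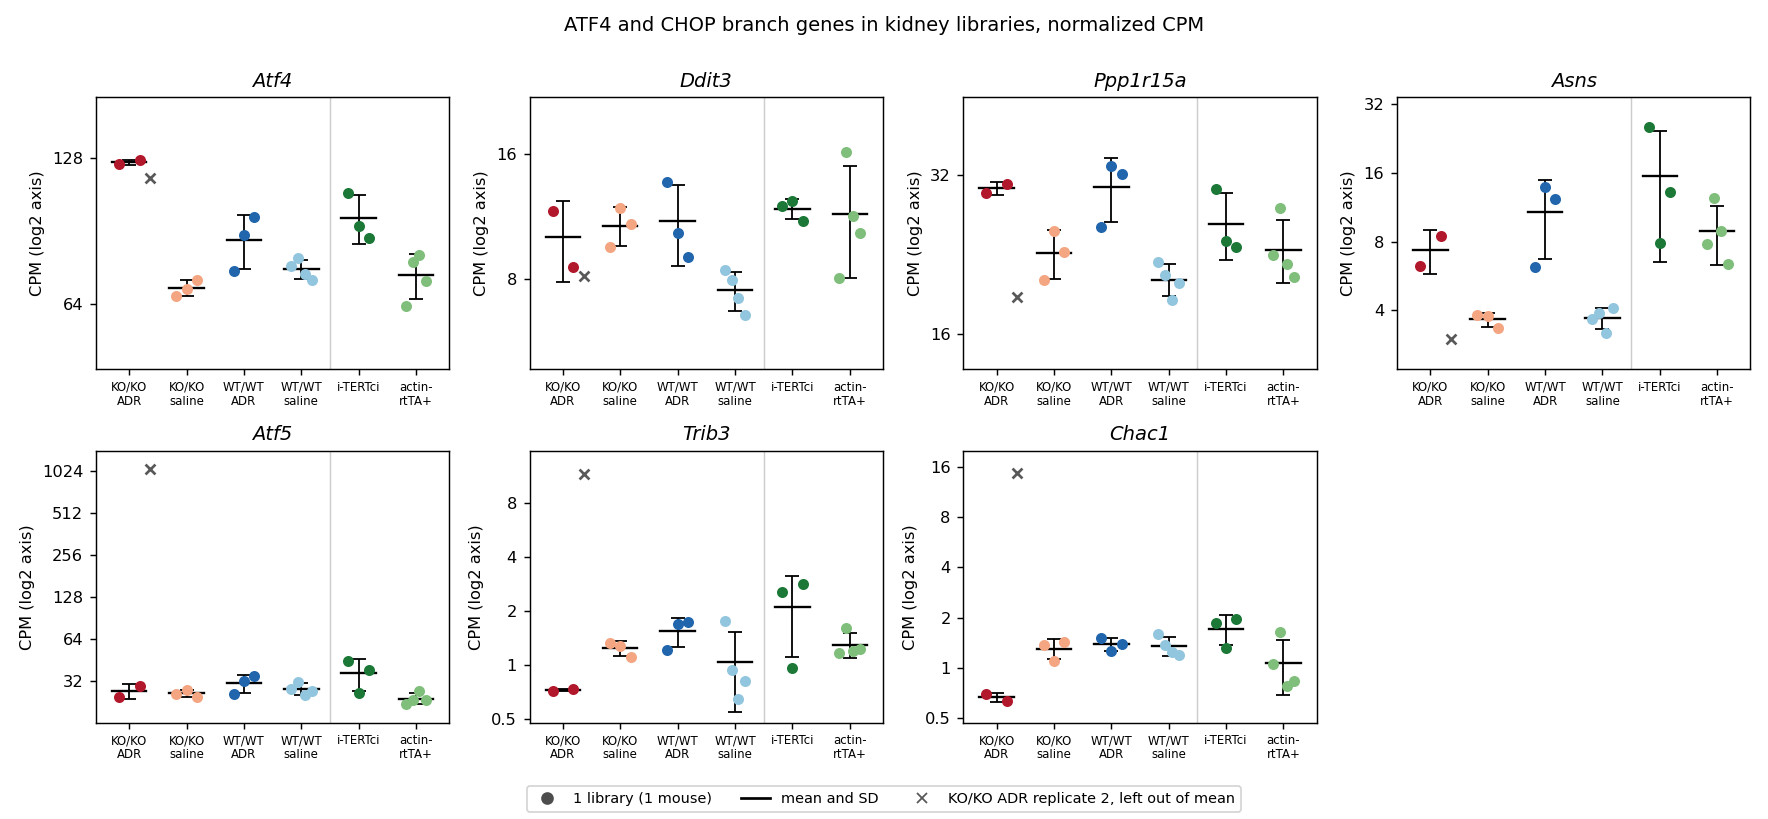
Normalized CPM (log2 axis) of the 7 genes of the ATF4 and CHOP branch in each library, by group, with the mean and SD of each group and the left-out library of the TERT KO/KO ADR group as a cross, whose height rests on its TMM factor. Asns lies at 6.15 to 13.9 CPM in TERT WT/WT ADR libraries, above the 3.19 to 4.08 CPM of the saline libraries, and Atf4 lies at 124 and 126 CPM in TERT KO/KO ADR libraries.

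Marker genes of kidney and infiltrating cells moved in the same comparison. Summed over 12 proximal tubule markers, of which 6 were called lower, the level was 4214 to 20153 CPM in TERT WT/WT ADR kidneys, against 24052 to 27951 CPM in TERT WT/WT saline kidneys. All 10 markers of injured tubule were called higher and summed to 4855 to 23160 CPM in ADR kidneys, against 1952 to 2053 CPM in saline kidneys. ADR replicate 1 was the nearest to the saline libraries on both lists, with 20153 and 4855 CPM. Of the medians given above it had the lowest of the ADR libraries for the chaperones, at -0.32 against -0.30 and -0.29. For the ATF4 and CHOP branch its median was the nearest to 0, at 0.24. Among the genes called lower it was the ADR library nearest to the saline libraries in Dnajb11, Dnajc3, Canx, Edem1 and Derl1. It was the lowest ADR library in Hspa5 and the middle one in Hyou1. Of 10 podocyte markers 8 were called lower, with sums of 191 to 581 CPM in ADR kidneys, against 684 to 767 CPM in saline kidneys.
Macrophage markers, 9 of 10 called higher, summed to 368 to 886 CPM in ADR kidneys, against 180 to 236 CPM in saline kidneys. Fibroblast markers, 6 of 10 called higher and 1 lower, summed to 646 to 1292 CPM in ADR kidneys, against 351 to 421 CPM in saline kidneys. Plasma cells are secretory cells rich in ER chaperones, and their markers, among which Derl3 is listed, 5 of 11 tested called higher and 1 lower, summed to 130 to 300 CPM in ADR kidneys, against 24.1 to 51.6 CPM in saline kidneys. No tubule, podocyte, macrophage or fibroblast marker was at 0 in any library. The part of these cell types in the results on the 32 genes was not tested, and in whole kidney RNA fewer cells of a type and less RNA per cell cannot be told apart.

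The calls differed in how far they rested on single libraries. Asns and Ppp1r15a were called with each of the 12 libraries left out in turn, with adjusted p of up to 0.0102 and 0.0317. Without TERT WT/WT ADR replicate 2 none of the 7 genes that fell was called, when 2.12% of all genes were called lower. Without ADR replicate 3 there were 3 genes called lower (5.63% of all genes), and without saline replicates 2, 3 and 4 there were 3 (7.92%), 2 (5.94%) and 1 (5.79%). Ddit3 lost its call without ADR replicate 1, when Atf4, Dnajb9 and Eif2ak3 were called higher and 21.3% of all genes were. It also lost its call without ADR replicate 2 (6.94% of all genes called higher) and without saline replicates 2 (11.2%), 3 (10.4%) and 4 (10.3%). With the liver-like library kept, which enters this comparison through the filter, the scaling and the shared estimate of spread, Asns alone was called (adjusted p = 0.0239), when 4.1% of all genes were called higher and 0.728% lower, and the log2 fold changes of the 7 genes that fell were then -0.60 to -0.31.

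Lists of other genes of the pathway were read beside the 32. Against 15.2% and 12.0% of all genes called higher and lower, 15 (36.6%) and 6 (14.6%) of 41 other ATF4 and CHOP targets tested were called. Those of smallest p were Bbc3, the apoptosis factor PUMA (11.1 ± 5.27 CPM in ADR kidneys, against 2.86 ± 0.165 CPM in saline kidneys, SD, n = 3 and 4), Atf3 (16.8 ± 11.1 against 1.44 ± 0.298 CPM), the stress hormone Gdf15 (38.6 ± 24.6 against 5.45 ± 0.601 CPM) and Eif4ebp1, a brake on translation (54.8 ± 21.1 against 21.7 ± 1.91 CPM). All of these rose. Several of these targets also answer to other pathways, and Bbc3 is a known target of p53.
Of 27 other chaperone and redox genes 3 were called higher and 3 lower (11.1% each), under the 15.2% and 12.0% of all genes. Among those called were Bag2 (29.6 ± 12.5 CPM in ADR kidneys, against 14.1 ± 0.712 CPM in saline kidneys) and Erp44, which retains proteins in the early secretory pathway (55.9 ± 3.04 against 75.3 ± 5.96 CPM). Of 28 other ERAD and translocation genes 2 (7.14%) were called lower, among them the signal recognition particle receptor gene Srpr (95.8 ± 10.3 against 132 ± 11.7 CPM). Of 17 other sensors and factors 4 (23.5%) were called higher and 5 (29.4%) lower, with the ER-anchored factor Creb3l3 at 2.84 ± 1.39 against 0.436 ± 0.127 CPM and its relative Creb3l2 at 63.2 ± 10.4 against 107 ± 15.7 CPM.

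The same comparison in mice without TERT was made on 2 TERT KO/KO ADR and 3 TERT KO/KO saline libraries. Atf4 was the only one of the 32 genes to be called, and it rose. Atf4 (ENSMUSG00000042406.8, chromosome 15, 80255184 to 80257541), the central factor of the PERK branch, had 124 and 126 CPM in TERT KO/KO ADR kidneys, against 66.4, 68.6 and 71.7 CPM in TERT KO/KO saline kidneys. Its log2 fold change was 0.86 ± 0.12 (adjusted p = 0.00437). Of all genes tested 3.83% were called higher and 1.43% lower. Atf4 stayed called with each library left out in turn, with adjusted p of up to 0.0326, and with the liver-like library kept (adjusted p = 0.0133), when 1.32% of all genes were called higher and 0.275% lower.

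Other genes of the branch lay on both sides of zero in TERT KO/KO mice. Asns had 6.23 and 8.50 CPM in ADR kidneys, against 3.80, 3.77 and 3.34 CPM in saline kidneys, and just missed the call (log2 fold change 1.02 ± 0.28, adjusted p = 0.0560). Chac1 had 0.696 and 0.636 CPM in ADR kidneys, against 1.38, 1.11 and 1.44 CPM in saline kidneys (-0.97 ± 0.26, adjusted p = 0.0510), and Trib3 had 0.718 and 0.732 CPM against 1.33, 1.28 and 1.11 CPM. In these 3 genes the groups did not overlap. Over the 32 genes the ADR libraries lay above all saline libraries in 6 and below in 5, against 21.3% and 20.8% of all genes. Ppp1r15a had 29.5 and 30.8 CPM in ADR kidneys, against 20.2, 25.0 and 22.8 CPM in saline kidneys, and Ddit3 overlapped. The branch median was 0.05 on the log2 scale, against 0.01 over all genes tested.

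No chaperone, ERAD or sensor gene was called in TERT KO/KO mice, and their medians were -0.12, -0.04 and 0.17 on the log2 scale. Hspa5 had 282 and 354 CPM in ADR kidneys, against 370, 333 and 409 CPM in saline kidneys, so the groups overlapped. Hyou1, Dnajc3 and Calr had both ADR libraries below all saline libraries, with 652 and 654 CPM in ADR kidneys, against 791, 801 and 908 CPM in saline kidneys for Calr. Dnajb9 had 69.0 and 75.4 CPM in ADR kidneys, against 56.9, 41.6 and 46.9 CPM in saline kidneys, and Eif2ak3 had 42.5 and 49.0 CPM against 33.7, 24.6 and 28.4 CPM, which put both above, with adjusted p of 0.0649 and 0.0742. With 2 libraries left in the group, a p that misses the threshold does not show that these genes were unchanged.

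These near misses depended on libraries of the other genotype, which share the estimate of spread. Without TERT WT/WT ADR replicate 1 the genes called higher in TERT KO/KO ADR kidneys were 5, namely Atf4, Asns, Dnajb9, Eif2ak3 and Ppp1r15a, and Chac1 was called lower, when 10.3% of all genes were called higher and 7.61% lower. Without TERT WT/WT ADR replicate 2 there were 2 genes called higher (3.78% of all genes), and without replicate 3 there were 3 higher (5.19%) and 1 lower (2.81%). In the main fit 8 of 41 other ATF4 and CHOP targets were called higher and none lower, against 3.83% and 1.43% of all genes. These 8 were led by Cebpb (58.8 ± 10.6 CPM in ADR kidneys, against 12.7 ± 2.18 CPM in saline kidneys), Atf3 (17.3 ± 4.97 against 0.938 ± 0.426 CPM), Gdf15 (45.7 ± 13.9 against 6.08 ± 1.43 CPM) and the amino acid transporter Slc7a5 (12.2 ± 2.16 against 4.93 ± 0.425 CPM). Of the other lists only Traf2, an adaptor of IRE1, was called (25.5 ± 1.87 against 15.4 ± 0.905 CPM).
Cell markers moved here too, with proximal tubule sums of 10236 and 9615 CPM in TERT KO/KO ADR kidneys, against 22007 to 30205 CPM in TERT KO/KO saline kidneys, and injured tubule sums of 7899 and 13713 CPM against 1866 to 2162 CPM. Of the injured tubule markers 5 of 10 were called higher, and none of the 12 proximal tubule markers was called. Plasma cell markers summed to 19.7 and 28.0 CPM in ADR kidneys, against 24.0 to 41.9 CPM in saline kidneys, with 1 of 11 called higher and 1 lower. Fibroblast markers, 4 of 10 called higher, summed to 784 and 1366 CPM in ADR kidneys, against 384 to 438 CPM in saline kidneys. Macrophage markers, 4 of 10 called higher, summed to 223 and 677 CPM, against 187 to 227 CPM, and podocyte markers, 3 of 10 called lower, to 521 and 350 CPM, against 632 to 710 CPM. Hepatocyte markers, which take 32.8% of the counts of the left-out library, summed to 526 and 248 CPM in the ADR libraries kept, against 175 to 335 CPM in saline libraries. The part of these in the result on Atf4 was not tested.

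**Figure D3:**
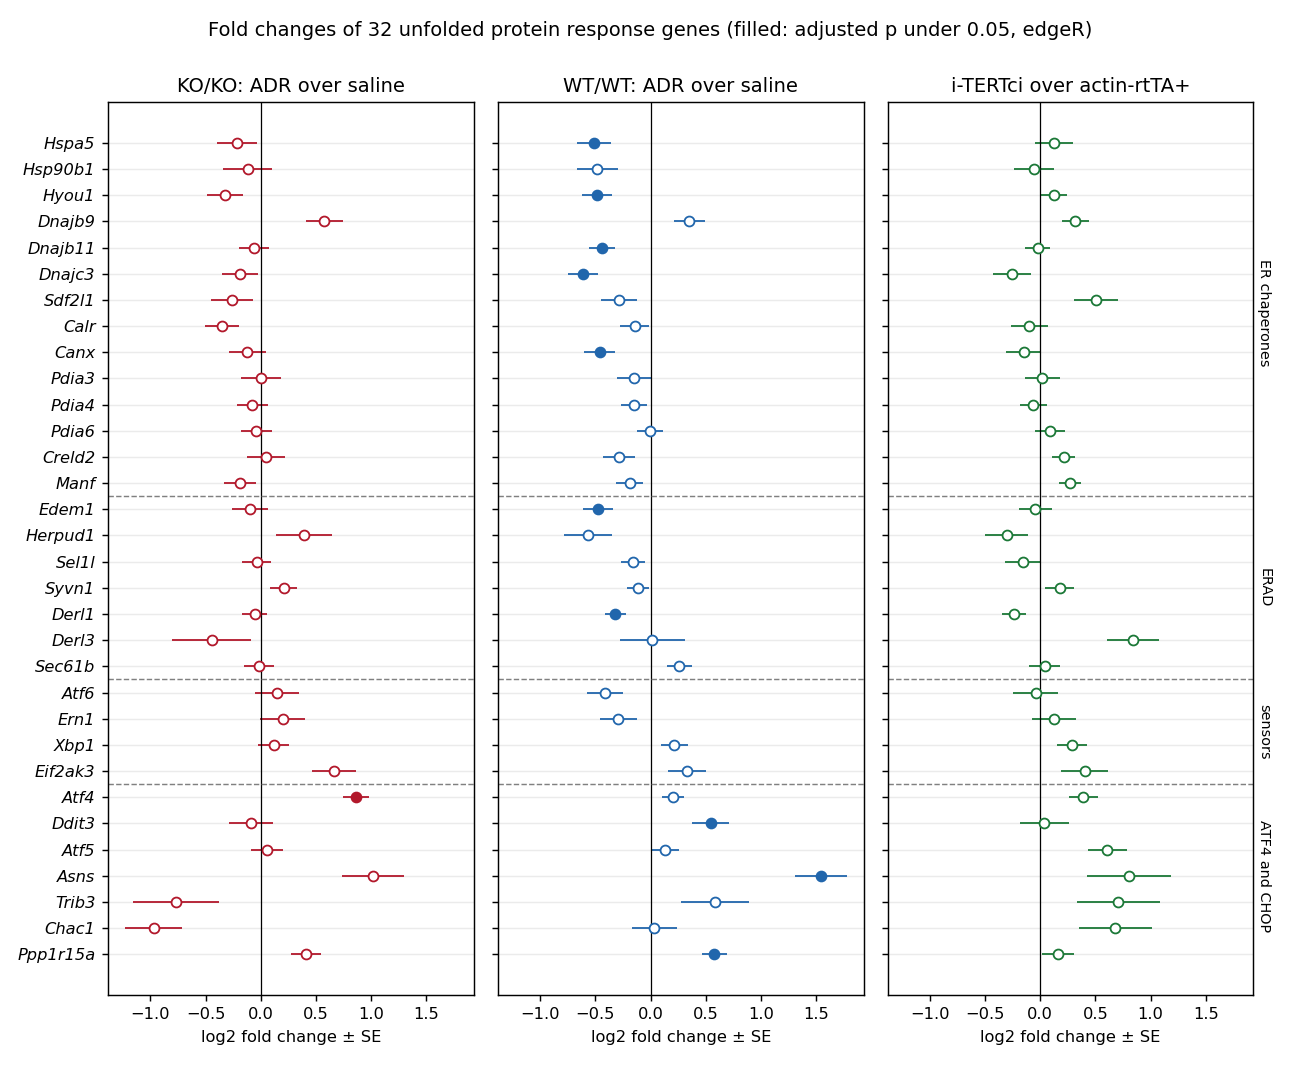
Fold changes (log2, with SE) of the 32 genes for ADR over saline in TERT KO/KO and in TERT WT/WT mice and for i-TERTci over actin-rtTA+ mice, with filled points for genes called at an adjusted p under 0.05 by edgeR. The TERT KO/KO panel has 1 filled point, Atf4 at 0.86, the TERT WT/WT panel has 10, and the i-TERTci panel has none.

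Whether the ADR effect differed between the genotypes was tested as the difference of the fold changes. None of the 32 genes was called by edgeR, and 0.0% of all genes were. At an unadjusted p under 0.05 there were 6 of the 32, with 12.0% of all genes, and DESeq2 called 1, which was Atf4, with 0.692% of all genes. The 6 were Atf4, Herpud1 and Atf6, with a more positive effect in TERT KO/KO mice (differences of 0.66, 0.95 and 0.56 on the log2 scale), and Ddit3, Trib3 and Chac1, with a more negative effect (-0.64, -1.35 and -1.01). The adjusted p of Atf4 was 0.26 by edgeR. The 7 genes that fell in TERT WT/WT mice had differences of 0.16 to 0.42, so their falls are not shown to differ from the values in TERT KO/KO mice.

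Between ADR kidneys of the 2 genotypes, again no gene of the 32 was called by edgeR, against 0.0736% of all genes. There were 4 with an unadjusted p under 0.05, with 7.66% of all genes, and DESeq2 called Atf4, with 0.647% of all genes. The 4 were Atf4, with 124 and 126 CPM in TERT KO/KO ADR kidneys, against 74.7, 88.5 and 96.5 CPM in TERT WT/WT ADR kidneys, Herpud1, with 449 and 290 CPM against 267, 133 and 182 CPM, Chac1, with 0.696 and 0.636 CPM against 1.50, 1.27 and 1.39 CPM, and Trib3, with 0.718 and 0.732 CPM against 1.22, 1.70 and 1.73 CPM. In each of these the libraries of the genotypes did not overlap, as in 6 of the 32 genes that lay higher and 4 that lay lower in all, against 8.89% and 7.72% of all genes. Their log2 fold changes were 0.53 ± 0.12, 0.93 ± 0.25, -1.06 ± 0.26 and -1.09 ± 0.39, with adjusted p of 0.20 to 0.52.
Without TERT WT/WT ADR replicate 1, which was the nearest to saline libraries on the tubule markers, Atf4 and Herpud1 were called higher and Asns lower, with 2.44% and 1.68% of all genes. Herpud1 was then also called in the difference of the ADR effects, with 1.11% of all genes more positive in TERT KO/KO mice. Plasma cell markers differed between the same kidneys, at 19.7 and 28.0 CPM in TERT KO/KO ADR libraries, against 130 to 300 CPM in TERT WT/WT ADR libraries. In the main fit 3 of the 11 markers were called lower, against 0.0263% of all genes, and the part of plasma cells was not tested.

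In saline kidneys the genotypes could be compared without injury. No gene of the 32 was called by edgeR or DESeq2, against 0.00526% of all genes by edgeR and 0.114% by DESeq2. Only 3 genes had an unadjusted p under 0.05, with 8.79% of all genes. These were Ddit3, with 9.54, 11.9 and 10.9 CPM in TERT KO/KO saline kidneys, against 8.40, 7.95, 7.21 and 6.56 CPM in TERT WT/WT saline kidneys, the translocon gene Sec61b, with 38.5, 40.8 and 40.9 CPM against 36.6, 35.1, 30.0 and 32.6 CPM, and the ERAD ligase Syvn1, with 66.4, 62.0 and 66.5 CPM against 78.4, 83.1, 74.6 and 70.9 CPM. Fold changes were negative in all 14 chaperones, in 27 of all 32 genes and in 9365 of the 19023 genes tested. The chaperone median was -0.18 on the log2 scale, against 0.005 over all genes tested, and in all 14 chaperones the groups overlapped. Of all genes 6.78% lay higher and 6.01% lower without overlap. The TERT WT/WT saline libraries are those of the TERT WT/WT ADR comparison, so the 2 sets of values are not independent.

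**Figure D4:**
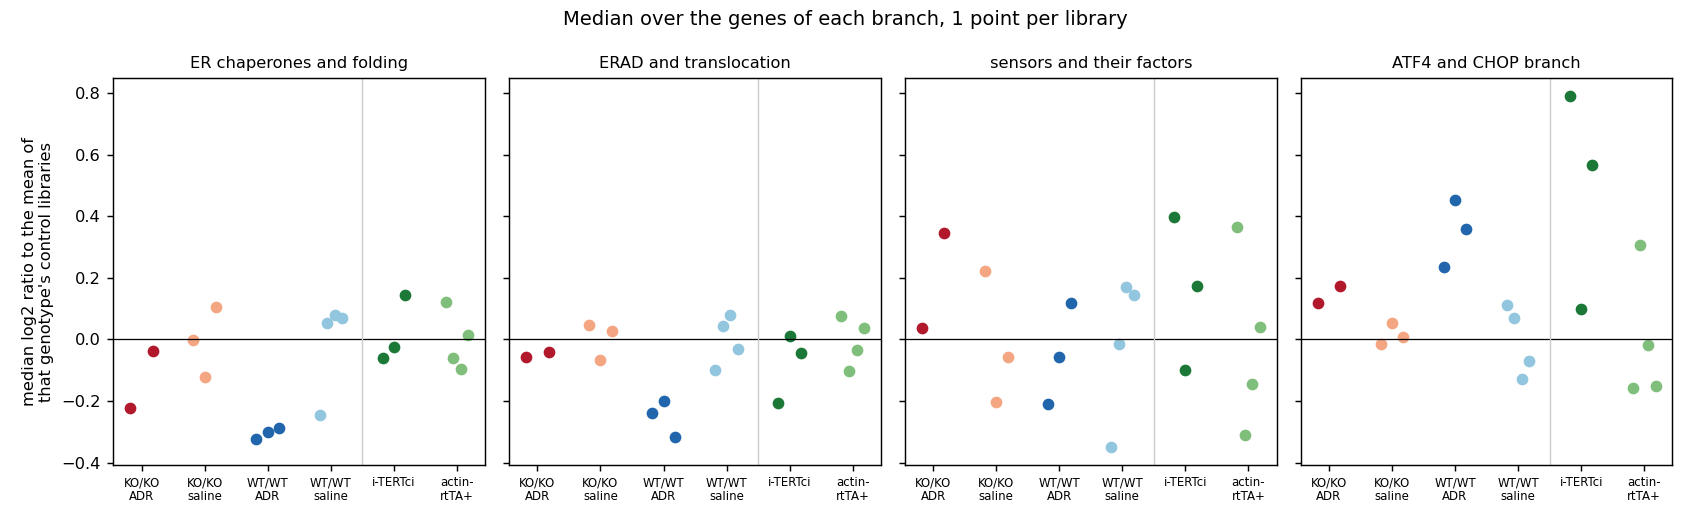
Median over the genes of each branch of the log2 ratio to the mean of the control libraries, with 1 point per library. The left-out library is not drawn. The controls are saline libraries of the same genotype in the ADR experiment and actin-rtTA+ libraries in the other. The chaperone medians of the TERT WT/WT ADR libraries lie at -0.32 to -0.29, and those of the ATF4 and CHOP branch lie at 0.10 to 0.79 in i-TERTci libraries.

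The i-TERTci kidneys, 8 days after doxycycline was withdrawn, were compared with actin-rtTA+ kidneys. None of the 32 genes was called by edgeR, against 0.00564% of all genes. At an unadjusted p under 0.05 there were 6 of the 32, with 22.4% of all genes, and DESeq2 called Derl3, with 10.1% of all genes. The 6 were Dnajb9, Sdf2l1, Manf, Derl3, Atf4 and Atf5, and all were higher in i-TERTci kidneys. The branch medians were 0.05 on the log2 scale for the chaperones, -0.05 for the ERAD genes, 0.21 for the sensors and 0.61 for the ATF4 and CHOP branch, in which all 7 fold changes were positive, against 0.02 over all genes tested.

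The i-TERTci mice were unlike each other. Over the ATF4 and CHOP branch the median log2 ratio to the actin-rtTA+ mean was 0.79, 0.10 and 0.57 in replicates 1, 2 and 3, and the actin-rtTA+ libraries ran from -0.16 to 0.31. Atf5 had 44.7, 26.4 and 38.8 CPM in i-TERTci kidneys, against 21.8, 23.6, 27.1 and 23.6 CPM in actin-rtTA+ kidneys. Asns had 25.5, 7.89 and 13.1 CPM in i-TERTci kidneys, against 7.78, 12.5, 8.89 and 6.39 CPM in actin-rtTA+ kidneys. Trib3 had 2.55, 0.958 and 2.83 CPM in i-TERTci kidneys, against 1.16, 1.61, 1.20 and 1.23 CPM in actin-rtTA+ kidneys. In all 3 genes replicate 2 lay within or below the actin-rtTA+ range and replicates 1 and 3 lay above it.
Some marker lists separated the mice in the same way. Injured tubule markers summed to 17494, 2112 and 12395 CPM in i-TERTci replicates 1, 2 and 3, against 2026 to 2217 CPM in actin-rtTA+ kidneys, and proximal tubule markers to 3969, 38599 and 19645 CPM, against 34430 to 36862 CPM. Replicate 2, whose Tert count of 1086 was the highest, thus lay with the actin-rtTA+ libraries on the injured tubule list. Macrophage markers summed to 1646, 234 and 839 CPM, against 156 to 233 CPM. Other lists had replicate 2 above every actin-rtTA+ library, with fibroblast sums of 2884, 691 and 2120 CPM, against 386 to 567 CPM, and hepatocyte sums of 212, 209 and 424 CPM, against 148 to 180 CPM. Podocyte sums were 289, 1310 and 620 CPM, against 629 to 818 CPM, so that replicate 2 was the highest library. No marker of these lists was called by edgeR, and the part of these in the values of the 32 genes was not tested. With replicate 2 left out, 5 of the 32 genes were called higher and none lower, when 15.1% of all genes were called higher. They were Asns, Atf5 and Trib3 (log2 fold changes of 1.12, 0.79 and 1.04), Eif2ak3, which encodes PERK (0.59), and Sdf2l1 (0.70).

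A few genes were higher in every i-TERTci library, replicate 2 included. Atf4 had 108, 92.6 and 87.4 CPM in i-TERTci kidneys, against 63.3, 78.0, 80.8 and 71.4 CPM in actin-rtTA+ kidneys. Derl3, which belongs to the Derlin family of ERAD factors and is abundant in secretory cells, had 2.78, 3.73 and 3.28 CPM in i-TERTci kidneys, against 1.75, 1.45, 1.77 and 2.29 CPM in actin-rtTA+ kidneys. Manf, Dnajb9 and Xbp1 also had all i-TERTci libraries above all actin-rtTA+ libraries, and Derl1 had them below, with 74.7, 72.9 and 83.3 CPM against 92.6, 87.7, 86.9 and 96.5 CPM. These 5 genes above and 1 below stand against 9.01% and 8.17% of all genes. Plasma cell markers summed to 399, 1004 and 1370 CPM in i-TERTci replicates 1, 2 and 3, against 126 to 275 CPM in actin-rtTA+ kidneys, so replicate 2 lay above the actin-rtTA+ libraries on this list too. Derl3 is itself 1 of the 12 genes of the list. The part of plasma cells in the values of Derl3, Manf, Dnajb9 and Xbp1 was not tested. The main chaperones did not separate the groups, with Hspa5 at 301, 354 and 400 CPM in i-TERTci kidneys, against 372, 311, 276 and 334 CPM in actin-rtTA+ kidneys.

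No list of other pathway genes held a call in i-TERTci kidneys by edgeR. Of the 41 other ATF4 and CHOP targets 22 had an unadjusted p under 0.05, against 22.4% of all genes. Positive fold changes were seen in 33 of the 41, against 9212 of all 17745 genes, and the median of the 41 was 0.25 on the log2 scale. An unadjusted p under 0.05 was found in 3 of 27 other chaperone and redox genes, 2 of 29 other ERAD and translocation genes and 2 of 17 other sensors and factors, all under the share of all genes. Their medians were -0.01, 0.02 and 0.03. The ATF4 and CHOP lists thus had the larger medians in this comparison, as in TERT WT/WT ADR kidneys, where that of the other ATF4 and CHOP targets was 0.31.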

How the data were processed

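Whole-kidney RNA of 20 mice was sequenced, of which 7 belong to the i-TERTci and 13 to the ADR experiment. Per the study's methods, paired-end reads were checked with FastQC, clipped with Trimmomatic and aligned with STAR to mm10, and the authors deposited raw counts per gene, 1 column per mouse. The counting tool, annotation release and strand setting are not given in the sources used here, so overlapping or antisense genes cannot be told apart. Of 55471 identifiers, 54487 were found in GENCODE M21 at their version, and names, exon lengths and mm10 coordinates come from it. Of the 2 identifiers named Ddit3 the first listed, ENSMUSG00000025408.15, was used, and counts of the other were not added.

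Each experiment was fitted with edgeR 4.0.16 in R 4.3.3, with filterByExpr, TMM factors, 1 coefficient per group and the robust quasi-likelihood F test, and p was adjusted by Benjamini-Hochberg over all genes tested, with calls under 0.05. The ADR fit used 12 libraries, without the liver-like library, whose own levels were scaled with TMM factors of all 13. Errors of fold changes are SE worked back from the log2 fold change and the F statistic of its test, and the depth was 39323498 to 48399322 counts. Alternatives were the 13-library fit, median-ratio factors, no filter, a replicate block, DESeq2 1.42.0 and the omission of single libraries. The fits were run on simulated data, but the smallest change put in was larger than most of those called here. How well changes as small as those are found was not tested. Each mouse is 1 library, and p-values weigh a difference against the spread between mice, which in the ADR fit is estimated over all its groups together.

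The 32 genes, the pathway lists and the marker lists were chosen with earlier results of these data known. Values in every library are given for genes called in any comparison and for others set beside them, and from each pathway list up to 4 called genes of smallest p, except for 1 gene that is not reported here.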

Additional observations from a re-analysis of the deposited data

Results flagged for a closer look

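In 3 of 64 groups of 4 libraries (32 genes in each of the TERT WT/WT saline and actin-rtTA+ groups) 1 library lay far from the other 3, and chance gives this in about 1 of 20 groups. Calr had 771.6 CPM in TERT WT/WT saline replicate 1, below the other 3 libraries at 896 to 921 CPM, which is the library with the low chaperone median. Creld2 had 41.58 CPM in TERT WT/WT saline replicate 2, above the others at 28.1 to 29.2 CPM. Trib3 had 1.606 CPM in actin-rtTA+ replicate 2, above the others at 1.16 to 1.23 CPM.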

How the results depend on the processing

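Of the 11 fold changes called, each kept its sign under every alternative run. In TERT WT/WT ADR against saline kidneys, the genes called higher were 3 and those lower 7. With TERT KO/KO ADR replicate 2 kept they were 1 and 0, and with the replicate block 2 and 4 (10.5% and 8.44% of all genes). Deviations of same-numbered libraries correlated at -0.34 to 0.36, and those of differently numbered libraries at -0.36 to 0.33. With so few libraries per group, these values cannot tell whether the replicate numbers pair the mice. Without filter there were 3 and 6 (8.12% and 5.39%), and with DESeq2 3 and 9 (13.9% and 11.8%). Leaving out 1 library gave 2 to 5 higher and 0 to 9 lower, with 6.94% to 21.3% and 2.12% to 19.8% of all genes.

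In TERT KO/KO ADR against saline kidneys, Atf4 alone was called and none was lower. There were 4 higher without filter (2.3% of all genes), 4 higher and 2 lower with DESeq2 (7.48% and 4.64%), and 1 lower with median-ratio factors (1.45%). Leaving out 1 library gave 1 to 5 higher and 0 to 1 lower, with 0.811% to 10.3% and 0.121% to 7.61% of all genes. In TERT KO/KO against TERT WT/WT ADR kidneys DESeq2 called 1 gene higher, and leaving out 1 library gave 0 to 2 higher and 0 to 1 lower, with 0.0% to 2.44% and 0.0% to 1.68% of all genes. The difference of the ADR effects had 1 call with DESeq2 and 0 to 1 without 1 library. In i-TERTci kidneys DESeq2 called 1 gene, and leaving out 1 library gave 0 to 5 higher, with 0.0% to 15.1% of all genes. In the left-out library 26 of the 32 genes lay above the other 12 with TMM factors and 7 when scaled by its total alone, a scaling chosen after the data were seen. Elsewhere the block changed no count, and the cause of these changes was not tested. Where a group without 1 library has 1 left, that library is assumed to vary like the other groups. With 2 to 4 mice per group, small changes are not detectable, and genes under 2 CPM, such as Trib3 and Chac1, rest on fewer counts than the other genes.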
